A study of Mus musculus with 12 samples.

Results

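The genes described here encode core scaffolds and kinase subunits of the postsynaptic density, together with a calmodulin-binding protein that is abundant at the same synapses. They were chosen by symbol: Dlg4, Dlg2, Dlgap1, Shank1, Shank2, Shank3, Camk2a, Camk2b and Nrgn, which are 9 of the 38924 genes in the tables. RNA was taken from whole brains of mice aged 6 weeks, with 3 mice for each of 4 genotypes, 12 libraries in all. Wild type (WT) mice and mice homozygous for the h1 allele of Rorb were on C57BL/6J. Mice homozygous for h2 were on B6(Cg)-Tyrc-2J/J and mice homozygous for h4 on B6.129S7-Il1r1tm1Imx/J, so allele and background cannot be told apart in h2 and h4. All groups shared the age, the tissue and the library kit, and Rorb encodes an orphan nuclear receptor. What each allele changes in the Rorb sequence is not stated in the labels.

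The postsynaptic density is a protein mesh under the membrane of excitatory synapses, found mostly on dendritic spines. MAGUK proteins such as PSD-95 hold glutamate receptors and adhesion molecules at the membrane, SAPAP proteins link them to the deeper SHANK layer, and SHANK proteins connect to Homer and the actin cytoskeleton. CaMKII, activated by calcium-bound calmodulin, is a main kinase of synaptic plasticity, and neurogranin binds calmodulin when calcium is low.

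ROR receptors are known to bind the half-site AGGTCA, usually after an A/T-rich stretch, and the bases just upstream of the starts were searched for it. Stretches are shown for Dlgap1, which carries the half-site, and for Shank3, Dlg4 and Nrgn, which fell in h4. They were picked with the results known, and any link between the half-site and the levels was not tested. The RefSeq promoter table (GRCm38.p6) held 11 start sites for 6 of the 9 genes, and none was given there for Camk2a, Shank1 and Shank2. The half-site AGGTCA, searched on both strands of the 250 bases before each start, was present at 3 of these 11 starts. It was present in 14.02% of all 32851 promoters in the table, and the longer TAGGTCA, which contains it, in 2 of 11 and in 2.23% of all. Dlgap1 carried it at both of its starts, and Dlg4 at 1 of its 3 starts, on the minus strand and within annotated exons (not printed). The stretch printed for Dlg4 lies before another of its starts, which lacks the half-site. The stretches below run 5′ to 3′ on the gene's strand, leave out bases that GENCODE annotates as exon, and mark the half-site in capitals.
Dlgap1 (chr17:69968823-69969072, plus strand): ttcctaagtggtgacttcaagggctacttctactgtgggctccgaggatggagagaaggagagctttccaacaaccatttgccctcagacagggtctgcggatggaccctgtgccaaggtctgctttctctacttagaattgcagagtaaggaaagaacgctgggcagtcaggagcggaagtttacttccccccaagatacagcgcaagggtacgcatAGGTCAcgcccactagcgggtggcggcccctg
Shank3 (chr15:89499358-89499607, plus strand): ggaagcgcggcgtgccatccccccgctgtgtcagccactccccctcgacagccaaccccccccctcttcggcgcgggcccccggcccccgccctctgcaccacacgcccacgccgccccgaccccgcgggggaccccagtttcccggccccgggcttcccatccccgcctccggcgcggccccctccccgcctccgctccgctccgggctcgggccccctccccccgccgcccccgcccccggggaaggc
Dlg4 (chr11:70023732-70023919, plus strand): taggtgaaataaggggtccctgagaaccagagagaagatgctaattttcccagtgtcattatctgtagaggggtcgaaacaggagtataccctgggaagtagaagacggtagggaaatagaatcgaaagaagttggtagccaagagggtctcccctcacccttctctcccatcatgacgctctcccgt
Nrgn (chr9:37552905-37552995, minus strand): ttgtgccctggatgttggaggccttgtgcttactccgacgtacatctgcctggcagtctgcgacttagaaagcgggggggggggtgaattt
The Shank3 stretch is almost entirely G and C, at 82.4% of its bases, against 55.2% in that of Dlgap1. A match to these letters is a description of the sequence only, and an absent match says nothing about binding of a receptor.

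Libraries held 14513825 to 24694178 expected counts, and every one of the 9 genes was detected in all 12 libraries with at least 2118 counts and passed the low-count filter. Rorb itself measured 16.3 to 18.4 CPM (expected counts scaled to the library total) in WT mice, 22.6 to 33.1 in h1 mice, 22.6 to 31.1 in h2 mice and 8.65 to 9.11 in h4 mice. Xist, the RNA of the inactive X chromosome, reached 783 to 915 CPM in 7 libraries but only 0.557 to 1.34 in the other 5, being high in all 3 WT libraries but in 1 of 3 in h1, 1 of 3 in h2 and 2 of 3 in h4. Each comparison with WT therefore also differed in this composition. The 42 marker genes of brain cell types were detected in every library.

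In h4 brains, 6 of the 9 genes fell against WT and none rose. Dlg4, Dlg2, Camk2a, Shank1, Shank3 and Nrgn fell, while Shank2, Dlgap1 and Camk2b did not pass the test. Over all 16493 genes tested, 2.91% fell and 4.55% were called in either direction, where a call is a Benjamini-Hochberg adjusted p under 0.05 from edgeR's quasi-likelihood test. The median log2 fold change was -0.19 over the 9 genes and 0.01 over all genes tested. For 7 of the 9 genes every h4 library lay below every WT library, against 9.17% of all genes tested. By mean CPM the 9 genes stood at the 91.8th (Shank2) to 99.8th (Camk2a) percentile of the genes tested. Shares over all genes, here and below, therefore include many genes with fewer counts. Shares among genes of like level were not computed. Fewer cells of a type and less RNA per cell cannot be told apart in whole-brain RNA.

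In h1 and h2 brains, none of the 9 genes was called against WT by edgeR, DESeq2 or limma, where 0.625% of all genes were called by edgeR in h1 and 0.679% in h2. At an unadjusted p under 0.05, edgeR counted 4 of the 9 in h1 (Dlg4, Camk2a, Shank1 and Shank3) and 4 in h2 (Dlg4, Dlg2, Camk2a and Nrgn), against 9.82% and 11.5% of all genes. The log2 fold change was below 0 for 9 of 9 genes in h1, with a median of -0.09, and for 8 of 9 in h2, with a median of -0.09. The 3 mutant groups were compared with the same 3 WT libraries, so their differences from WT are not independent of one another.

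**Figure D1:**
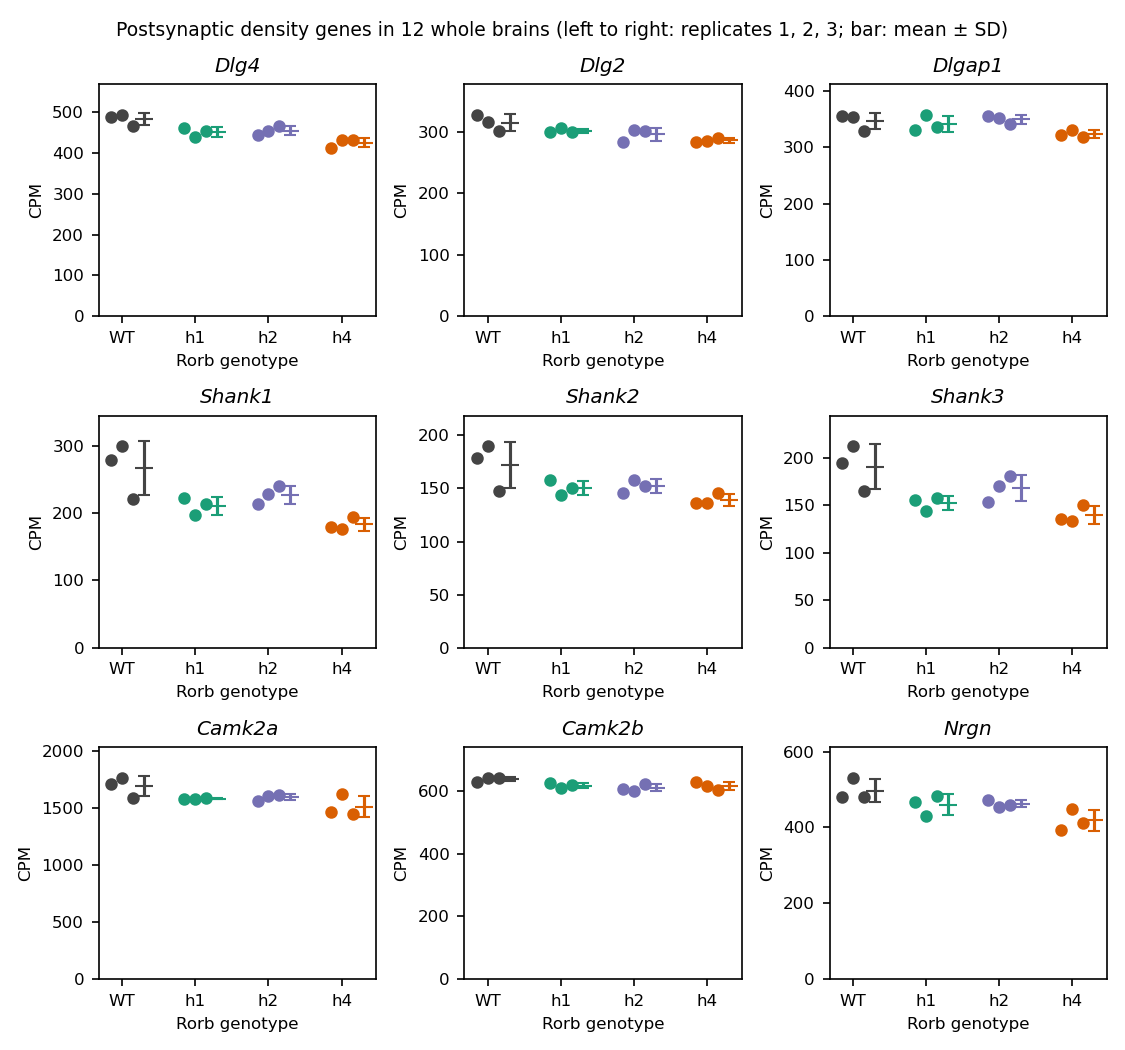
Expression of the 9 genes in CPM (vertical axes, starting at 0) by Rorb genotype, with 1 point per library (replicates 1 to 3 from left to right) and a bar for the mean ± SD (n = 3). The h4 libraries sit below all other libraries for Dlg4 and Shank1, and WT replicate 3 sits below WT replicates 1 and 2 for every gene except Camk2b and Nrgn.

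Levels per transcript length were compared in the deposited TPM. In WT, Nrgn stood at 761 ± 48.7 TPM and Camk2a at 739 ± 60.2 (SD, n = 3), and these did not differ beyond their spread. Dlg4 (347 ± 12.04) and Camk2b (343 ± 6.89) followed, again within each other's spread, and then Dlgap1 (146 ± 10.5) and Dlg2 (146 ± 9.91). The Shank genes were lowest, at 96.9 ± 15.3 for Shank1, 65.1 ± 9.21 for Shank3 and 44.4 ± 6.30 for Shank2, and no WT library of one overlapped those of the next. In h4 the order of the groups was alike, with Camk2a at 628 ± 48.6, Nrgn at 624 ± 39.4, Camk2b at 321 ± 8.66, Dlg4 at 295 ± 7.62, Dlgap1 at 131 ± 3.24, Dlg2 at 130 ± 2.81, Shank1 at 64.5 ± 1.36, Shank3 at 45.7 ± 3.94 and Shank2 at 35.99 ± 1.81 TPM. There Camk2b stood above Dlg4 in every library, which was not so in WT.

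Dlg4 encodes PSD-95, the main MAGUK scaffold of the excitatory postsynapse (ENSMUSG00000020886, chromosome 11, 70016942 to 70047522, plus strand, GRCm38). It measured 489, 494 and 466 CPM in WT mice, 462, 439 and 453 in h1 mice, 444, 454 and 467 in h2 mice, and 413, 432 and 432 in h4 mice. All h4 libraries lay below every library of the other 3 genotypes, and h1 lay below WT without overlap. The log2 fold change in h4 was -0.19 (SE 0.036, edgeR adjusted p = 0.00197, lower in 3 of 3 libraries). In h1 and in h2 it was -0.09, with 95% intervals of -0.16 to -0.01 and adjusted p of 0.376 and 0.33. The h4 call of Dlg4 was kept under all 19 alternatives tried.

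Dlg2 encodes PSD-93, a MAGUK related to PSD-95 (ENSMUSG00000052572, chromosome 7, 90476672 to 92449247, plus strand). Its level was 328, 317 and 301 CPM in WT mice, 299.7, 306 and 300.1 in h1 mice, 284, 303 and 302 in h2 mice, and 283, 285 and 291 in h4 mice. The h4 libraries lay below those of WT and h1 but overlapped those of h2. The fall in h4 was -0.15 on the log2 scale (SE 0.039, edgeR adjusted p = 0.0252), and the call was lost without WT replicate 1 (0.175), WT replicate 2 (0.0844), h4 replicate 1 (0.0882) or h4 replicate 3 (0.0529) and with limma. In h1 the log2 fold change was -0.05 (interval -0.13 to 0.03) and in h2 -0.09 (interval -0.17 to -0.01), and neither passed.

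Dlgap1 encodes SAPAP1, which joins PSD-95 to the SHANK layer (ENSMUSG00000003279, chromosome 17, 69969073 to 70821413, plus strand). It measured 356, 355 and 330 CPM in WT mice, 331, 358 and 336 in h1 mice, 356, 352 and 342 in h2 mice, and 322, 332 and 318 in h4 mice. The h4 libraries were below all h2 libraries and overlapped WT replicate 3. The log2 fold change was -0.11 in h4 (interval -0.19 to -0.02, edgeR adjusted p = 0.146), -0.01 in h1 (interval -0.10 to 0.07) and 0.01 in h2 (interval -0.07 to 0.10). Dlgap1 shares 92 exonic bases with a gene on the opposite strand, and the kit does not mark strand.

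The 3 SHANK genes encode the multidomain scaffolds below the SAPAP layer and showed the largest log2 differences among the 9 genes. Shank1 (ENSMUSG00000038738, chromosome 7, 44310253 to 44360572, plus strand) measured 278, 299 and 221 CPM in WT mice, 222, 196 and 214 in h1 mice, 213, 228 and 239 in h2 mice, and 179, 176 and 194 in h4 mice. All h4 libraries were below every other library, and WT replicate 3 lay within the range of h1 and h2. Shank1 fell in h4 by 0.55 on the log2 scale (SE 0.106, edgeR adjusted p = 0.0263), from a mean of 266 ± 40.2 to 183 ± 9.81 CPM (SD, n = 3). In h1 its log2 fold change was -0.33 (interval -0.57 to -0.09, adjusted p = 0.323) and in h2 -0.23 (interval -0.47 to 0.01, adjusted p = 0.454).

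Shank3, whose loss in people is linked to Phelan-McDermid syndrome, lies on chromosome 15 at 89499623 to 89560261 on the plus strand (ENSMUSG00000022623). Its level was 195, 212 and 165 CPM in WT mice, 155, 144 and 158 in h1 mice, 153, 170 and 180 in h2 mice, and 135, 133 and 151 in h4 mice. The h4 libraries were below those of WT and h2 and overlapped those of h1. Shank3 fell in h4 by 0.46 on the log2 scale (SE 0.097, edgeR adjusted p = 0.0361), while the log2 fold change was -0.32 for h1 (adjusted p = 0.293) against -0.18 for h2 (adjusted p = 0.529). Shank1 shares 339 exonic bases with an antisense gene at a mean of 26.3 counts per library, and Shank3 shares 271 with another at 43.4, where reads of the 2 strands cannot be told apart.

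Shank2 (ENSMUSG00000037541, chromosome 7, 144001928 to 144424494, plus strand) measured 178, 190 and 148 CPM in WT mice, 158, 144 and 150 in h1 mice, 146, 158 and 153 in h2 mice, and 136, 136 and 146 in h4 mice. The h4 libraries lay below all WT libraries, yet the difference did not pass with edgeR. Its log2 fold change in h4 was -0.31 (interval -0.50 to -0.13, adjusted p = 0.0735), and DESeq2 called it (adjusted p = 7.65e-05). DESeq2 called 7 of the 9 genes lower in h4, where 4.29% of the 12331 genes it gave an adjusted p were lower. With limma 4 of the 9 were called, and its share over all genes is not given here. In h1 the log2 fold change of Shank2 was -0.18 (interval -0.37 to 0.00) and in h2 -0.17 (interval -0.36 to 0.01).

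The SHANK results depended on WT replicate 3. That library was also the lowest of WT for Dlg4, Dlg2, Camk2a and Dlgap1. Without WT replicate 3, the log2 fold changes in h1 were -0.45 for Shank1 (edgeR adjusted p = 0.000103), -0.29 for Shank2 (0.000752) and -0.41 for Shank3 (0.0119), so 3 of the 9 genes fell, against 0.581% of all genes. In h2 they were then -0.35 for Shank1 (0.000967) and -0.28 for Shank2 (0.0006), so 2 of 9 fell against 1.35% of all genes, while Shank3 at -0.28 did not pass (0.0543). In h4 all of the genes except Camk2b fell without that library, 8 of 9 against 4.64% of all genes. With it kept, the h4 call of Shank1 was lost without any 1 of WT replicates 1 and 2 or of the 3 h4 libraries (adjusted p up to 0.144 over all alternatives). That of Shank3 was lost without any 1 of these and also without h1 replicate 1, h1 replicate 3 or h2 replicate 2. With Xist as a covariate, Shank1 (-0.53, adjusted p = 0.054) and Shank3 (-0.45, adjusted p = 0.065) missed the threshold, as they did with only the WT and h4 libraries fitted (0.144 and 0.125).

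The SHANK genes have long, GC-rich transcripts: the longest annotated one is 9826 bases with 61.4% GC for Shank1, 8988 bases with 55% for Shank2 and 7365 bases with 62.4% for Shank3. The levels of long GC-rich genes as a class also differed between libraries. Over 168 genes with at least 55.2% GC, 6119 bases and 20 CPM, the median log2 deviation from the mean of all libraries was 0.082, 0.131 and 0.005 in WT replicates 1 to 3. For the h1 libraries it was 0.041, -0.04 and -0.043, for h2 -0.047, -0.006 and 0.045, and for h4 -0.065, -0.051 and -0.026. The lowest value of WT was again that of replicate 3, and all 3 h4 values were below 0. Shank1 and Shank3 are themselves among the 168 genes, while Shank2, at 55% GC, falls just below the cut. With a correction of every library for GC content and length, chosen after seeing the data, the h4 difference of Shank1 was -0.36 (edgeR adjusted p = 0.00061) and that of Shank3 -0.31 (adjusted p = 0.00875), so both were smaller and both passed. Under it 5 of the 9 genes fell in h4, where 2.75% of all genes fell, and Camk2a at -0.13 did not pass (adjusted p = 0.0749).

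**Figure D2:**
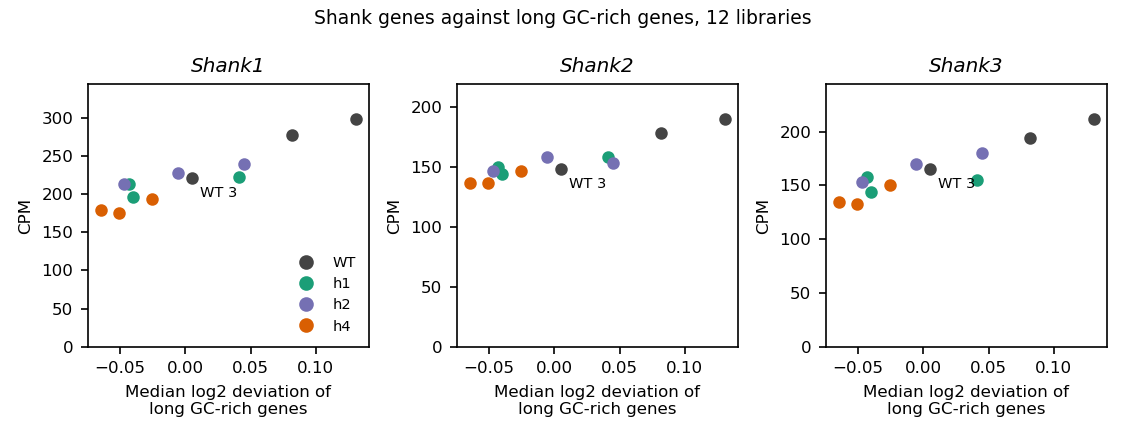
CPM of Shank1, Shank2 and Shank3 (vertical axes, starting at 0) against the median log2 deviation of 168 long GC-rich genes (horizontal axes) in the 12 libraries, coloured by genotype. WT replicates 1 and 2 are at the upper right in each panel, the h4 libraries at the lower left, and WT replicate 3 (marked) lies among the mutants. Shank1 and Shank3 are among the 168 genes and Shank2 is not.

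The make-up of the SHANK family was compared as shares of summed TPM. Shank1 held 46.9% ± 0.607 of the sum in WT (SD, n = 3), against 45.9% ± 0.358 for h1, 45.7% ± 0.869 for h2 and 44.2% ± 1.28 for h4. Shank2 held 21.5% ± 0.352 in WT mice, 23.0% ± 0.481 in h1 mice, 22.7% ± 1.16 in h2 mice and 24.6% ± 0.770 in h4 mice, and Shank3 between 31.1% and 31.6% in every genotype on average. Between the 9 mutant libraries and WT the exact permutation p (2-sided) was 0.0273 for Shank2 and 0.0455 for Shank1, and both had an adjusted p of 0.25 over 20 such comparisons, so neither passed. The share of Camk2a in the CaMKII pair was 68.3% ± 1.38 in WT and 66.1% ± 2.004 in h4 (exact permutation p = 0.2). With 3 against 3 libraries this test cannot give a p below 0.1, so no share of a single mutant genotype could pass against WT. In h4, Shank1 and Shank2 were at that lowest value.

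Camk2a encodes the alpha subunit of CaMKII, the form most abundant in forebrain excitatory neurons (ENSMUSG00000024617, chromosome 18). It was the most abundant of the 9 genes in CPM, at 1716, 1767 and 1594 in WT mice, 1581, 1584 and 1589 in h1 mice, 1567, 1610 and 1616 in h2 mice, and 1469, 1623 and 1451 in h4 mice. Replicates 1 and 3 of h4 were below all other libraries, while h4 replicate 2 was above every h1 and h2 library and within the range of WT. The fall in h4 was -0.17 on the log2 scale (SE 0.040, edgeR adjusted p = 0.0179), and the call was lost without WT replicate 1 (0.119), WT replicate 2 (0.111), h4 replicate 1 (0.0899) or h4 replicate 3 (0.0793), with only the WT and h4 libraries fitted (0.0732) and with limma. In h1 and h2 the log2 fold change was -0.08 in each, with adjusted p of 0.496 and 0.436.

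Camk2b, which encodes the actin-binding beta subunit of CaMKII, had the smallest difference in h4 (ENSMUSG00000057897, chromosome 11, 5969644 to 6066362, minus strand). Its level was 630, 642 and 640 CPM in WT mice, 625, 608 and 619 in h1 mice, 607, 601 and 622 in h2 mice, and 628, 617 and 603 in h4 mice. All 9 mutant libraries were below the 3 WT libraries, by small margins. The log2 fold change was -0.04 in h1 (interval -0.10 to 0.03), -0.06 in h2 (interval -0.13 to 0.00) and -0.06 in h4 (interval -0.12 to 0.01, edgeR adjusted p = 0.356). Camk2b was not called in h4 under any of the 19 alternatives tried.

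Nrgn encodes neurogranin, the calmodulin-binding protein of dendritic spines (ENSMUSG00000053310, chromosome 9, 37544492 to 37552904, minus strand). It measured 479, 531 and 481 CPM in WT mice, 468, 431 and 483 in h1 mice, 473, 454 and 460 in h2 mice, and 394, 449 and 412 in h4 mice. The h4 libraries lay below all WT and h2 libraries and overlapped those of h1. Nrgn fell in h4 by 0.26 on the log2 scale (SE 0.051, edgeR adjusted p = 0.00588), and the call was kept under all 19 alternatives tried. The log2 fold change was -0.10 in h1 (interval -0.21 to 0.00) and -0.11 in h2 (interval -0.21 to -0.00), with adjusted p of 0.53 and 0.435.

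**Figure D3:**
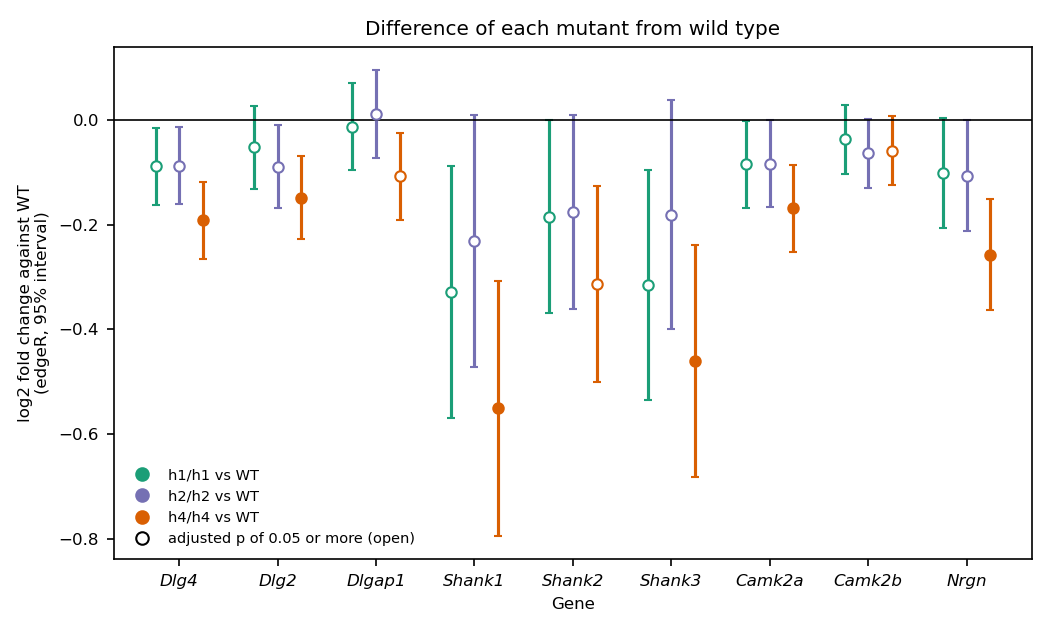
Log2 fold change of each gene against WT (vertical axis, edgeR, bars are 95% intervals) in h1, h2 and h4, with filled points where the adjusted p was under 0.05. The 6 filled points are all of h4 (Dlg4, Dlg2, Shank1, Shank3, Camk2a and Nrgn), and the widest intervals are those of the Shank genes.

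The spread between mice of 1 genotype, pooled over the genotypes by edgeR, was larger for the SHANK genes than for the others. The biological coefficient of variation was 0.089 for Shank1, 0.080 for Shank3 and 0.068 for Shank2, above the median of 0.057 over all genes tested. It was between 0.045 and 0.055 for the other 6 genes, below that median. The SHANK genes varied most within WT, with an SD of 15.1% of the mean for Shank1, where WT replicate 3 was low. That order did not hold in every genotype. In h4 the SD was 6.86% of the mean for Shank3, 6.75% for Nrgn and 6.24% for Camk2a. It was 5.37% for Shank1 and 4.07% for Shank2.

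Direct comparison of the mutants gave no call among the 9 genes by edgeR. Between h2 and h1 the count was 0 of 9, also at an unadjusted p under 0.05 (9.49% of all genes) and by DESeq2 and limma, where 0.722% of all genes were called by edgeR. Between h4 and h1 it was 0 of 9 against 4.64% of all genes, with 5 at an unadjusted p under 0.05 (19.1% of all genes). DESeq2 called 2 lower there (Dlg4 and Nrgn), where 3.72% of the 12651 genes it gave an adjusted p were lower, and limma called 0. Between h4 and h2 the edgeR count was 0 of 9 against 3.22%, with 6 at an unadjusted p under 0.05 (16.8% of all genes). DESeq2 called 3 lower there (Dlg4, Shank1 and Nrgn), against 2.69% of the 11372 genes it gave an adjusted p, and limma called 0. The log2 difference of h4 from h1 was -0.10 for Dlg4 (interval -0.18 to -0.03, adjusted p = 0.0956), -0.16 for Nrgn (interval -0.26 to -0.05, adjusted p = 0.0852) and -0.22 for Shank1 (interval -0.47 to 0.02, adjusted p = 0.311). From h2 it was -0.10 for Dlg4 (interval -0.18 to -0.03, adjusted p = 0.112), -0.15 for Nrgn (interval -0.26 to -0.04, adjusted p = 0.116) and -0.32 for Shank1 (interval -0.56 to -0.08, adjusted p = 0.171). The 6 calls in h4 beside none in h1 or h2 are therefore no difference between alleles that passed edgeR's direct test.

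Across the 3 mutants together, only Dlg4 of the 9 genes fell against WT, where 1.1% of all genes were called and 0.612% fell. Its mean log2 fold change was -0.12 (SE 0.029, edgeR adjusted p = 0.0343), and the call was lost without WT replicate 1, WT replicate 2 or h1 replicate 2, with Xist as a covariate and with limma. Nrgn (-0.15, adjusted p = 0.0809), Shank1 (-0.37, adjusted p = 0.103) and Camk2a (-0.11, adjusted p = 0.108) came next. DESeq2 called 6 of the 9 lower (Dlg4, Camk2a, Nrgn and the 3 Shank genes), where 1.62% of the 10732 genes it gave an adjusted p were lower. Without WT replicate 3, edgeR also called 6, where 2.25% of all genes were lower.

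Levels of the 9 genes varied together over the 12 libraries, which share genotype groups and library composition. Of 36 pairs, 21 had a Benjamini-Hochberg adjusted permutation p under 0.05 for Pearson's r, and 16 had it for both Pearson's r and Spearman's rho. The median r was 0.75 over all pairs, 0.64 without the 2 libraries farthest from the median, and 0.38 for deviations within genotypes. Shank1 and Shank3 were the closest pair, with r = 0.98 and rho = 0.97 (permutation p = 1e-05 for each, the smallest that 100000 resamples can give), 0.96 without 2 libraries and 0.96 within genotypes. Camk2b and Dlgap1 were the farthest apart, with r = -0.07 (permutation p = 0.826) and rho = -0.06. No pair with Camk2b passed.

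The genes whose log2 CPM followed each of the 9 most closely over the 12 libraries were found among 11520 others, as a description only. Adgrl1, the latrophilin 1 gene, was nearest to Shank1 (r = 0.99) and to Shank3 (r = 0.97). Pcdh1 (r = 0.96) and Chd3 (r = 0.96) were among the 3 nearest to Dlg4, and Dlg2 was nearest to the microtubule-binding Map1b (r = 0.96). Shank2 was nearest to Cit (r = 0.95), Dlgap1 to Dock3 (r = 0.91) and Camk2b to Nrsn2 (r = 0.88). Camk2a was nearest to Ddn, which encodes the spine protein dendrin (r = 0.93), and Nrgn to Cdk5r2, a Cdk5 activator (r = 0.95). After these came Ank2 and Nhsl2 for Dlg2, Basp1 and Rhobtb2 for Camk2a, Impdh2 and Ahdc1 for Camk2b, Spock2 and Prrc2b for Shank1, Lrp1 and Prrc2b for Shank2, Zc3h7b and Cacna1b for Shank3, Nos1ap and Sstr3 for Dlgap1, and Prrt1 and Agap2 for Nrgn.

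The estimated transcript length that RSEM gives each gene, an average over its mix of isoforms, gave no difference between genotypes that passed a test. In WT it was 2846 ± 45.3 bases for Dlg4, 4555 ± 60.6 for Camk2a, 5425 ± 172 for Shank1 and 7573 ± 50.7 for Shank2 (SD, n = 3). In h4 it was 2874 ± 41.1, 4670 ± 119.6, 5448 ± 224 and 7368 ± 162. For the 9 mutant libraries against WT, none of the 9 genes had an exact permutation p under 0.05, against 2.76% of all genes, and the smallest was 0.177 (Dlg2). With 3 against 3 libraries the smallest p possible is 0.1.

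Beyond the 9 genes, 76 others of the postsynapse were examined, all of which were tested. In h4, 23 of them fell and none rose against WT, where 2.91% of all genes fell, with a median log2 fold change of -0.09 against 0.01 over all genes. Among other scaffolds, 6 of 16 fell: the SAPAP genes Dlgap2 (-0.30), Dlgap3 (-0.31) and Dlgap4 (-0.27), and Lzts3 (-0.15), Sipa1l1 (-0.22) and Tanc2 (-0.20). Dlgap3 stood at 179, 187 and 160 CPM in WT and 136, 147 and 145 in h4, without overlap (edgeR adjusted p = 0.000716). Of 12 further MAGUK and PDZ genes, 4 fell: Dlg3, which encodes SAP102 (-0.17), Mpp2 (-0.15), Magi2 (-0.18) and Lin7a (-0.15), while Dlg1 was at 0.02.

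Receptor and adhesion genes included the largest fall in these lists. Grin2b, which encodes the GluN2B subunit of NMDA receptors, measured 475, 457 and 389 CPM in WT mice, 385, 419 and 398 in h1 mice, 406, 438 and 430 in h2 mice, and 316, 302 and 330 in h4 mice. All h4 libraries lay below every other library, and the log2 fold change was -0.49 (SE 0.064, edgeR adjusted p = 0.000782). Grin1, the obligatory NMDA receptor subunit (-0.13), the AMPA receptor auxiliary subunits Cacng2 (-0.25) and Cacng3 (-0.22), and the adhesion gene Nlgn2 (-0.17) also fell, 5 of 15 in all. The AMPA receptor subunits Gria1 (-0.03) and Gria2 (-0.05) did not pass.

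Among small GTPase regulators and Arc, 4 of 8 fell in h4, among them Agap2 (-0.23), Arhgap32 (-0.20) and Iqsec2 (-0.16), and Kalrn at -0.15 did not pass. Of 21 genes of calmodulin, kinases and phosphatases, 4 fell, among them Camkk2 (-0.13), Ppp1r9b, which encodes spinophilin (-0.15), and the anchoring protein gene Akap5 (-0.19). The calmodulin gene Calm2 (-0.07) and the other CaMKII genes Camk2d (0.08) and Camk2g (0.12) did not pass. None of 4 genes of inhibitory postsynapses was called by edgeR or DESeq2, and the median log2 fold change of this list was -0.02. By edgeR, 1 of them had an unadjusted p under 0.05 (17.6% of all genes).

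**Figure D4:**
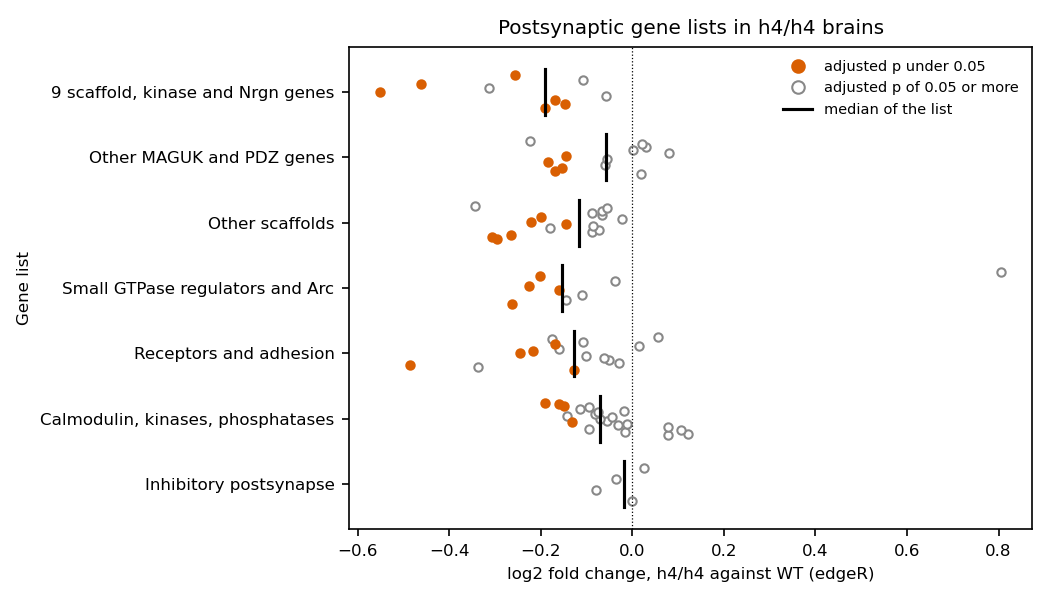
Log2 fold change of h4 against WT (horizontal axis, edgeR) for the 9 genes and 6 lists of other postsynaptic genes, with filled points where the adjusted p was under 0.05 and a line at the median of each list. All filled points lie below 0, the median of the inhibitory list (-0.02) is nearest to 0, and the point at 0.81 is Arc (adjusted p = 0.142).

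Against h1, 18 of the 76 genes were lower in h4 and 1 was higher, where 2.53% of all genes were lower and 2.11% higher, with a median of -0.09 where that of all genes was 0.01. The higher gene was the immediate early gene Arc, at a log2 difference of 1.58 (edgeR adjusted p = 0.017), with 63.9, 48.04 and 45.1 CPM in h1 and 136, 161 and 176 in h4. Besides Arc, genes called against h1 and not against WT were Calm2 (-0.13), Pcp4 (-0.21), Ppp3r1 (-0.18), Kalrn (-0.19) and Grm5 (-0.13). Against h2, 15 of 76 were lower in h4, where 1.68% of all genes were lower, among them Ppp3ca (-0.15), Ppp3r1 (-0.16) and Grin2b (-0.43, adjusted p = 0.00219). None was called by edgeR in h1 or h2 against WT, where 8 and 10 of the 76 had an unadjusted p under 0.05 (9.82% and 11.5% of all genes) and DESeq2 called 0 and 1. Between h2 and h1 edgeR also called none, with 5 at an unadjusted p under 0.05 (9.49% of all genes) and 1 by DESeq2. The 3 mutants together gave 4 lower: Dlgap3 (-0.16), Dlgap4 (-0.16), Agap2 (-0.13) and Cacng2 (-0.14).

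Markers of cell types were read beside the falls in h4. Over all genes tested, edgeR called 4.55% in h4 against WT, and 17.6% had an unadjusted p under 0.05. Of 6 markers of forebrain excitatory neurons, 2 fell, among them Tbr1 (-0.19, edgeR adjusted p = 0.0341), and 4 did not pass. DESeq2 called 3 of the 6, and 4 had an unadjusted p under 0.05 by edgeR. The log2 fold change was below 0 for 5 of them, with a median of -0.195, where that of the 9 genes was -0.191. Their summed level was 808 to 855 CPM in WT and 759 to 792 in h4. Slc17a7 made up most of that sum, at 626 to 655 CPM in WT and 588 to 621 in h4. Of 5 astrocyte markers, Gfap (0.38), Slc1a3 (0.15) and Aldh1l1 (0.28) rose, while their summed level was 3996 to 4102 CPM in WT and 3984 to 4104 in h4. Aqp4 (0.21, adjusted p = 0.323) and Slc1a2 (-0.14, adjusted p = 0.182) did not pass, and Slc1a2 made up most of that sum, at 2544 to 2729.6 CPM in WT and 2347 to 2493 in h4. None of 7 pan-neuronal markers was called by edgeR or DESeq2 (4 at an unadjusted p under 0.05), at 6088 to 6294 CPM in WT and 6121 to 6200.0 in h4. Summed cerebellar markers spanned 966 to 1055 CPM in WT and 902 to 1128 in h4, with none of 6 called by edgeR (2 at an unadjusted p under 0.05 and 2 by DESeq2). Against WT, edgeR called 0.625% of all genes in h1. There 4 of 6 oligodendrocyte markers rose, at 10098 to 11512 CPM summed in WT and 13027 to 13402 in h1. Of 4 endothelial markers, Cldn5 (-0.57, adjusted p = 0.0115) and Cdh5 (-0.34, adjusted p = 0.0183) fell in h1, where the summed level was 124 to 139 CPM against 154 to 155 in WT. The part of these cell type differences in the levels of the 9 genes was not tested.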

How the data were processed

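Poly(A) RNA of 12 whole brains was sequenced as 100 bp paired ends with a kit that does not mark strand, per the labels' protocols. The authors deposited 1 table of gene values per library. They used RSEM 1.2.12 and Bowtie2 2.2.0, according to the submitters' processing notes, whereas build and annotation were not given in the sources used here. Expected counts, as deposited, estimate the read pairs of a gene and can be fractions (77.7% of values above 0 were whole). The deposited TPM values are scaled to transcript length and library total, and the FPKM values deposited by the authors were not used in any test. The deposited lengths are averages over the estimated isoforms. Symbols and positions came from GENCODE M21 (GRCm38), which held 37607 of 38924 gene identifiers, and promoter sequences from RefSeq (GRCm38.p6).

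Expected counts were rounded and tested with edgeR 4.0.16 (R 4.3.3): TMM scaling (factors 0.991 to 1.012), the low-count filter (16493 genes kept), robust quasi-likelihood fits with 1 mean per genotype over all 12 libraries, 7 comparisons, and Benjamini-Hochberg adjustment over all genes tested. Library depth was 14513825 to 24694178 counts, and replicates differed beyond sampling noise (chi-square per degree of freedom 2.38 to 4.47), so none was a duplicate. The series design names 3 mice per genotype. Shares and lengths were compared with 2-sided exact permutation tests. The steps were tested on simulated data.

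Alternatives were DESeq2 1.42.0, limma 3.58.1 on log2(TPM + 1), RLE scaling, no filter, Xist as a covariate, only the groups compared, a replicate block for h2 against h1, each library left out and, chosen after seeing the data, a correction for GC content and transcript length (GC values for 98.7% of genes tested). The 9 genes and all lists were chosen with earlier results of these data known. The rule named the 9 genes, every other postsynaptic gene called in any comparison with the 2 of highest CPM in each list, and the 3 genes most like each of the 9. Camk2d, Camk2g and the called cell type markers were named after their values were seen. Values of some genes that the rule took are not reported here.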

Additional observations from a re-analysis of the deposited data

How the results depend on the processing

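No direction of a call reversed among the 9 genes under the alternatives run. The 6 genes called in h4 against WT became 7 with DESeq2, 4 with limma, 3 with only the groups compared and 2 to 8 with 1 library left out. Of the 12331 genes with a DESeq2 adjusted p, 4.29% were lower, and without WT replicate 3 edgeR called 4.64% of all genes lower. For most other settings in this section the share of all genes is not given. Changes in these counts therefore cannot be told from a setting that calls more or fewer genes in general. With Xist as a covariate, Dlg4, Dlg2, Camk2a and Nrgn stayed called. The counts of 0 in h1 and h2 against WT became 0 to 3 and 0 to 2 with 1 library left out, the highest without WT replicate 3. Between h4 and h1, 0 became 1 without the filter, 2 with only the groups compared, 2 with DESeq2, 4 with the GC and length correction and 0 to 2 with 1 library left out. Between h4 and h2, 0 became 2 without the filter, 2 with only the groups compared, 3 with DESeq2, 3 with the correction and 0 to 3 with 1 library left out. For the mutants together, 1 became 3 without the filter, 0 with Xist as a covariate, 0 with limma, 6 with DESeq2, 3 with the correction and 0 to 6 with 1 library left out. Shares of the families with an exact permutation p under 0.05, 2 in all, were 0 to 2 with 1 library left out.

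Of the 76 other genes, the 23 in h4 against WT became 6 with limma and 6 to 29 with 1 library left out, the 19 against h1 became 3 with limma, 30 with the correction and 6 to 24, and the 15 against h2 became 2 with limma, 23 with the correction and 4 to 18. The 4 in the mutants together became 8 without the filter, 1 with Xist, 0 with limma, 1 with the correction and 0 to 15. The 0 in h1 against WT became 1 without the filter, 1 with only the groups compared and 0 to 2, the 0 in h2 became 1 with DESeq2 and 0 to 5, and the 0 between h2 and h1 became 1 without the filter, 1 with only the groups compared, 1 with DESeq2 and 0 to 1. The cause of each change was not tested.

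Replicate numbers are shared by h1 and h2 only. With the replicate block, fitted to the h1 and h2 libraries only, 0 of the 9 genes and 1 of the 76 were called between them, and 204 genes in all. The main fit called 119 but used all 12 libraries, so these counts differ in more than the block. Same-numbered libraries correlated at -0.408, -0.354 and 0.122 in their deviations, and other pairs of libraries at -0.434 to 0.582. These values show no pairing by number, but with 3 libraries per group they cannot exclude one. No pairing was assumed. With 3 mice per group and 1 WT library apart from the other 2, differences in the SHANK genes of h1 and h2 remain uncertain, and gene-level values do not show isoforms or cell types.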
